A study of Homo sapiens with 6 samples.

Results

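The amino acid transporters described here are the genes of 6 solute carrier families, SLC1A, SLC6A, SLC7A, SLC36A, SLC38A and SLC43A, without the cystine transporter SLC7A11. They were chosen by symbol alone, leaving out pseudogenes and antisense genes, and 53 genes had a probe set of their own, out of 19775 genes measured. SLC36A2, SLC36A3 and SLC38A8 had no such probe set in the annotation used and were not analysed here. The study compared 1833 cells, a bone-seeking subline of the human breast cancer line MDA-MB-231, on 6 Affymetrix HG-U133 Plus 2.0 arrays. The 3 arrays labelled S153E-RKIP hold RNA of cells transduced with a lentiviral vector for the S153E mutant of RKIP, a Raf-1 inhibitor, under puromycin selection, and the 3 control arrays hold RNA of cells with the vector alone. The samples are called biological replicates without a word on how they were made, so p-values reflect the spread among these 6 arrays alone, and that spread may be technical. The labels do not say whether the transduced cells were a pool or a clone. All levels are log2 signals as deposited, all differences are S153E-RKIP minus control, and called genes are those with limma's adjusted p under 0.05 (Benjamini-Hochberg over all 19775 genes).

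Cells take up amino acids through carriers that differ in what they carry and in what drives them. Carriers of the SLC1A, SLC6A and SLC38A families use the sodium gradient and can concentrate amino acids in the cell, and SLC36A carriers use protons. Many SLC7A carriers exchange one amino acid for another, some of them only as partners of a heavy chain from the SLC3 family. When amino acids run short, the factor ATF4 switches on several of these genes, and carriers at the lysosome report amino acid supply to the kinase complex mTORC1. The SLC6A family reaches beyond amino acids, since it also holds the carriers of dopamine, noradrenaline, serotonin, GABA, taurine and creatine.

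The introduced gene was not higher on the arrays labelled S153E-RKIP. PEBP1, which encodes RKIP, had levels of 11.74, 11.64 and 11.61 on the S153E-RKIP arrays and 11.77, 11.73 and 11.77 on the control arrays (difference -0.093, SE 0.058, limma adjusted p = 0.473), and it was not tested whether its probe sets can read the transgene. The source name of the same samples speaks of shRNA against HMGA2, whose difference was -0.023 (adjusted p = 0.882). Every direction below therefore rests on the label S153E-RKIP. All 6 markers of MDA-MB-231 cells fixed for the check, such as VIM and CD44, were above the median of all genes (6.64). Of 17 measured markers of luminal, blood, endothelial, fibroblast, bone and nerve cells, EPCAM, ESR1 and PECAM1 were above it, and none of the 17 was called.

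Among the 53 amino acid transporters 1 gene was called, SLC38A4, and it fell. That is 1.89% of the members, and over all genes 376 of 19775, or 1.9%, were called, 0.688% higher and 1.21% lower. Of the members 11 (20.8%) had an unadjusted p under 0.05, 5 higher and 6 lower, beside 15.7% of all genes (7.75% higher and 7.92% lower). In 14 members, or 26.4%, the arrays of the groups did not overlap, 6 with S153E-RKIP above and 8 with S153E-RKIP below, beside 20.1% of all genes (9.31% above and 10.8% below). The median difference of the members was -0.0031, with 26 above 0 and 27 below 0, and that of all genes was 0.010. The median standard error of a member's difference was 0.075, and the number of arrays limits the precision.

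**Figure D1:**
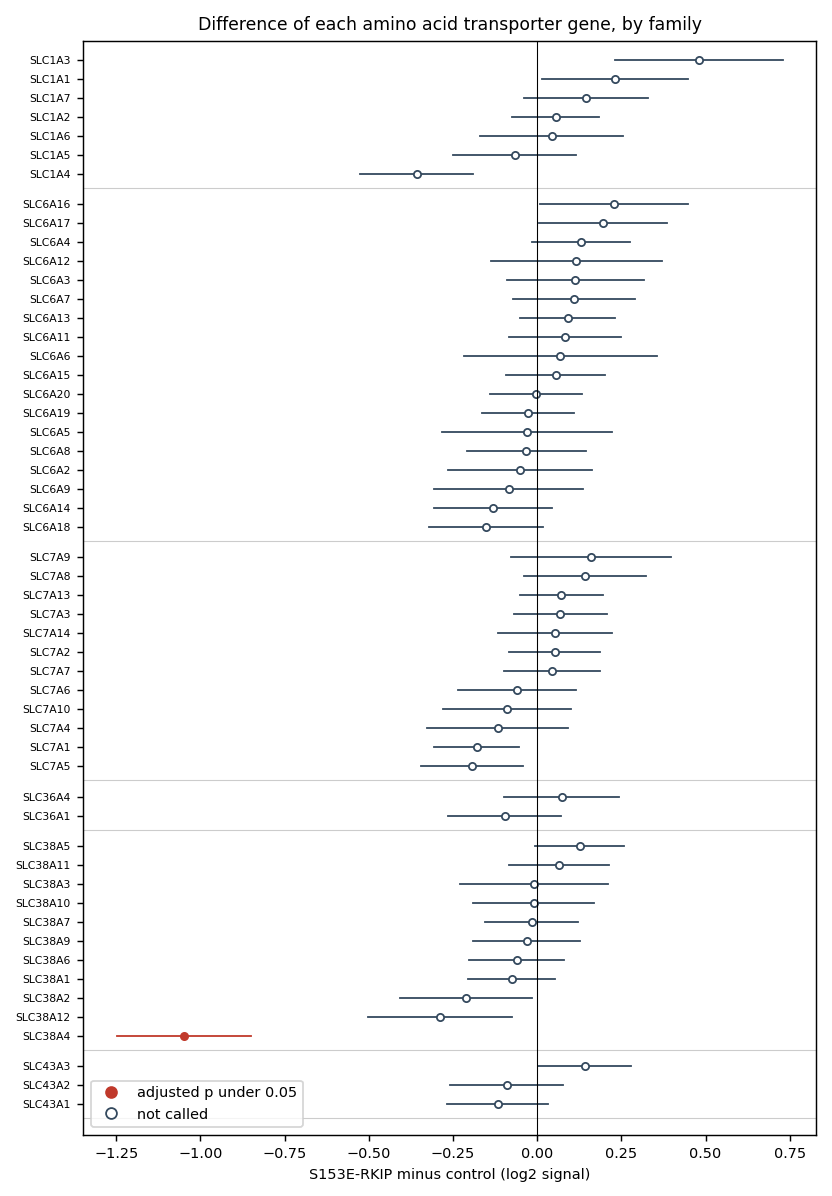
Difference in log2 signal (S153E-RKIP minus control, x axis) of each of the 53 amino acid transporter genes, grouped by family from SLC1A at the top to SLC43A at the bottom, with 95% confidence intervals from limma. The only filled point is SLC38A4 at -1.05, while the other genes lie between -0.36 (SLC1A4) and 0.48 (SLC1A3).

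SLC38A4 encodes SNAT4, a sodium-coupled carrier of small neutral amino acids of the system A type, best known from liver. Its levels were 5.39, 5.31 and 5.63 on the S153E-RKIP arrays and 6.44, 6.56 and 6.48 on the control arrays. The groups were 5.44 ± 0.16 and 6.49 ± 0.064 (SD, n = 3 each), with every S153E-RKIP array below every control array by more than the spread within either group. SNAT4 transcript thus differed by -1.05 (SE 0.087, interval of 95% confidence -1.25 to -0.85, adjusted p = 8.40e-04), or 2.07-fold lower. In bulk RNA, fewer cells with the transcript and less of it per cell cannot be told apart. The second probe set of the gene had 4.63, 5.31 and 5.14 on the S153E-RKIP arrays and 5.87, 5.77 and 5.82 on the control arrays. Tested among all 54613 probe sets, it differed by -0.80 (SE 0.15, adjusted p = 0.0531), and the brighter one by -1.05 (adjusted p = 9.57e-04). Both probe sets were below the median of all genes on every array, where signal over background was not measured, so the fold is a lower bound if the S153E-RKIP signals are background. The call held under each of the 17 alternatives in which the gene was tested (differences from -1.14 to -0.92), and a filter that keeps genes above 6 on at least 3 arrays kept it only through its control arrays.

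The stretch before a start site of SLC38A4 is shown because this is the transporter whose transcript was called. It holds the 250 bases ahead of that start in RefSeq's GRCh38.p14, on the - strand, and no match to the motif TGATGNAA on either strand. The stretch lies inside the gene as annotated (46764761 to 46832431), so this start is not the outermost one.
SLC38A4, chr12:46825998-46826247, - strand: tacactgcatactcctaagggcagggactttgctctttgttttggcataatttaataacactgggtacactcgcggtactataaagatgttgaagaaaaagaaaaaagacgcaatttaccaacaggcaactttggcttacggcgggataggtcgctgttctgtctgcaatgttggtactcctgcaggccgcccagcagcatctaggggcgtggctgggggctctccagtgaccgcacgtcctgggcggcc

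**Figure D2:**
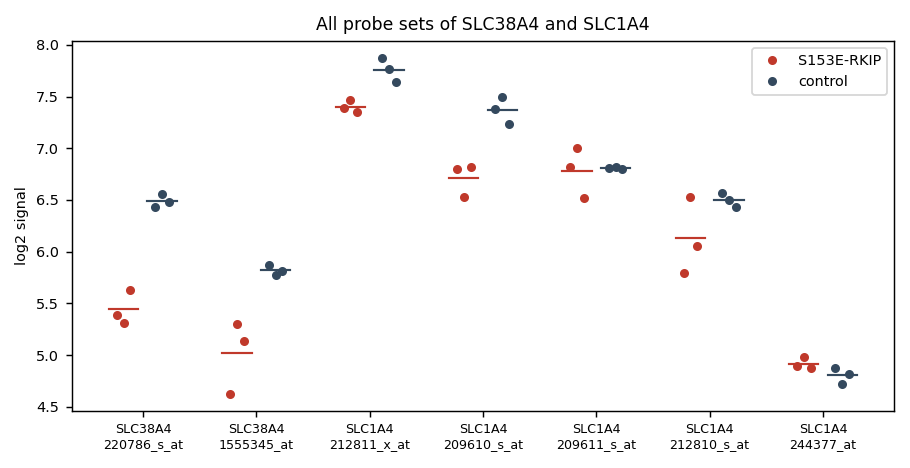
Log2 signal (y axis) of every probe set of SLC38A4 (2) and SLC1A4 (5) on the 3 S153E-RKIP arrays (left, red) and the 3 control arrays (right, dark), with bars at the group means. Both probe sets of SLC38A4 have all S153E-RKIP arrays below all control arrays, whereas the probe sets of SLC1A4 range from -0.65 to 0.11 in their differences.

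SLC38A4 lies on chromosome 12 in a row with SLC38A2 and SLC38A1, with no other protein-coding gene between them in the RefSeq annotation. In each of the 3, all S153E-RKIP arrays were below all control arrays. The same held for 10.8% of all genes, and for 18.5% of those above the median of all genes, where SLC38A1 and SLC38A2 lie. SLC38A2 encodes SNAT2, the system A carrier that cells make more of when amino acids run short. It had 12.41, 12.70 and 12.68 on the S153E-RKIP arrays and 12.77, 12.88 and 12.78 on the control arrays, with the lowest value on S153E-RKIP replicate 1. SLC38A2 differed by -0.21 (SE 0.086, adjusted p = 0.293), and without S153E-RKIP replicate 1 it was -0.12 (adjusted p = 0.410). Its 3 probe sets differed by -0.21 to -0.18. SLC38A1, encoding the glutamine carrier SNAT1, was named after its values were seen. It had 11.59, 11.65 and 11.68 on the S153E-RKIP arrays against 11.75, 11.71 and 11.68 on the control arrays. The difference was -0.076 (adjusted p = 0.539), and all 4 of its probe sets were below 0. Its groups barely lay apart, with 11.681 on S153E-RKIP replicate 3 and 11.682 on control replicate 3. In its next brightest probe set they overlapped, with 11.49 and 11.47 on the same arrays. Neither gene passed the test, so they share with SLC38A4 a sign and a place, not a call. The antisense genes SLC38A2-AS1 and SLC38A4-AS1, which lie in the same row, had differences of 0.27 and 0.089 (adjusted p = 0.112 and 0.742).

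Of the 11 SLC38A genes, 9 had a difference below 0, beside 9166 of all 19775 genes. Above the median of all genes, where 7 of the 11 lie, 6088 of 9887 genes were below 0. Among the 9, SLC38A3, SLC38A7 and SLC38A10 were close to 0 (-0.0081, -0.016 and -0.010). SLC38A12 had 7.01, 6.64 and 6.93 on the S153E-RKIP arrays and 7.13, 7.15 and 7.16 on the control arrays. The S153E-RKIP arrays were all lower and spread far more (SD 0.19 against 0.013), and the difference was -0.29 (SE 0.093, adjusted p = 0.198). SLC38A9, the lysosomal carrier that signals arginine to mTORC1, had 8.29, 8.15 and 8.35 on the S153E-RKIP arrays and 8.33, 8.33 and 8.22 on the control arrays. Its groups overlapped (difference -0.031, 95% confidence interval -0.19 to 0.13, adjusted p = 0.857), and its sign turned when the arrays were quantile normalised again. The second, dimmer probe set of SLC38A9 differed by -0.30 (adjusted p = 0.325 among all probe sets), and the mean of both by -0.16 (adjusted p = 0.291). The remaining 6 genes of the family, SLC38A3, A5, A6, A7, A10 and A11, differed by -0.061 to 0.13. SLC38A5, a carrier of glutamine and small neutral amino acids, had the highest of these, with all S153E-RKIP arrays (4.72, 4.81 and 4.67) above all control arrays (4.61, 4.60 and 4.61).

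**Figure D3:**
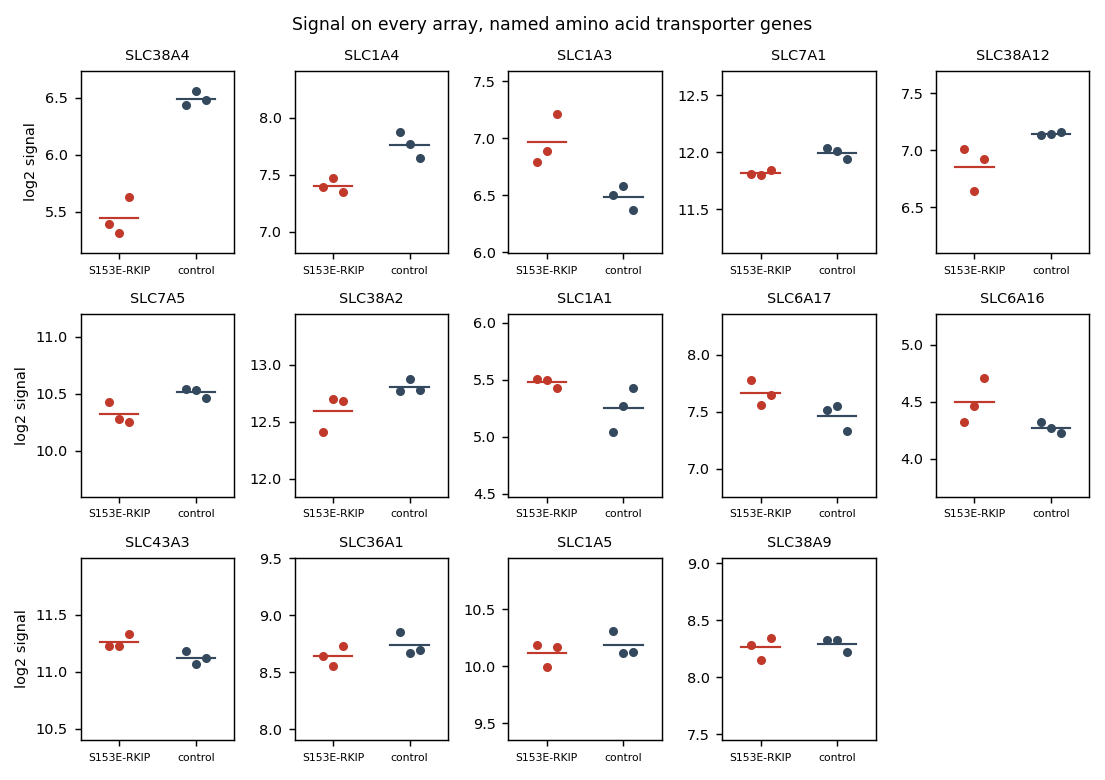
Log2 signal (y axis, each panel spanning 1.6) on each of the 3 S153E-RKIP arrays (left, red) and 3 control arrays (right, dark) for the 14 named amino acid transporters, in order of p, with bars at the group means. The groups lie apart by more than the spread within them in SLC38A4, while in SLC1A5, SLC36A1 and SLC38A9 they overlap.

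In the SLC1A family the brightest probe sets of the glutamate carriers and of the neutral amino acid exchangers differed in sign. Both exchangers lie above the median of all genes, where 6088 of 9887 genes were below 0. SLC1A4 encodes ASCT1, an exchanger of alanine, serine and cysteine, and had 7.39, 7.47 and 7.35 on the S153E-RKIP arrays and 7.88, 7.77 and 7.64 on the control arrays. Every S153E-RKIP array was lower, by -0.36 on average (SE 0.074, 95% confidence interval -0.53 to -0.19), and the adjusted p was 0.0555, just above the threshold. Its value depended on the probe set. The brightest of its 5 probe sets can pair with several transcripts, the next brightest differed by -0.65 and was called among all probe sets (adjusted p = 0.0182), and the other 3 differed by -0.027, -0.37 and 0.11. SLC1A4 was called in 5 of 18 alternatives, such as without probe sets that pair with several transcripts (adjusted p = 0.0141) or with equal array medians (adjusted p = 0.0258). Averaged over its probe sets, the difference was -0.26 (adjusted p = 0.0952). SLC1A5, encoding the glutamine exchanger ASCT2, had 10.19, 9.99 and 10.17 on the S153E-RKIP arrays and 10.31, 10.12 and 10.13 on the control arrays. These groups overlapped, with a difference of -0.067 (95% confidence interval -0.25 to 0.12, adjusted p = 0.716).

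All 5 glutamate carriers had a difference above 0, and none was called. Above 0 were also 10609 of all 19775 genes, and 6810 of the 9888 at or below the median level, where 3 of the 5 lie. At least 1 dimmer probe set was below 0 in SLC1A1, SLC1A2, SLC1A6 and SLC1A7, but not in SLC1A3. SLC1A3 encodes EAAT1, the glutamate and aspartate carrier of glia, and had 6.80, 6.89 and 7.21 on the S153E-RKIP arrays and 6.50, 6.58 and 6.37 on the control arrays. The groups did not overlap, with the highest value on S153E-RKIP replicate 3. SLC1A3 thus differed by 0.48 (SE 0.11, 95% confidence interval 0.23 to 0.73, adjusted p = 0.0790), and by 0.36 without that array (adjusted p = 0.104). SLC1A3 passed when only genes above the median level were tested (adjusted p = 0.0401) and in 2 other alternatives. Its control arrays all lay below that level (6.64), so the filter kept it only through its S153E-RKIP arrays. The second probe set of SLC1A3 differed by 0.18. SLC1A1, encoding the glutamate carrier EAAT3, had 5.51, 5.50 and 5.43 on the S153E-RKIP arrays and 5.04, 5.27 and 5.43 on the control arrays. Control replicate 3 reached into the S153E-RKIP range, the difference was 0.23 (SE 0.095, adjusted p = 0.296), and its second probe set differed by -0.12. SLC1A2, SLC1A6 and SLC1A7 differed by 0.043 to 0.15.

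Among the 12 SLC7A genes none was called, and differences ran from -0.19 to 0.16. SLC7A1 encodes CAT1, the main carrier of arginine and lysine in many cells, and had 11.81, 11.80 and 11.84 on the S153E-RKIP arrays and 12.03, 12.01 and 11.94 on the control arrays. The groups lay apart by little, with small spread in both (SD 0.022 and 0.047), and S153E-RKIP minus control came to -0.18 (SE 0.055, 95% confidence interval -0.31 to -0.053, adjusted p = 0.181). With trend and robust estimation of the variance SLC7A1 passed (adjusted p = 0.0274), and over its 5 probe sets the differences ran from -0.20 to 0.068. SLC7A5 encodes LAT1, which brings in leucine and other large neutral amino acids, and had 10.43, 10.28 and 10.25 on the S153E-RKIP arrays and 10.54, 10.53 and 10.46 on the control arrays. All S153E-RKIP arrays were lower, by -0.19 (SE 0.066, adjusted p = 0.219). Its partner SLC3A2, the 4F2 heavy chain, had 10.24, 9.88 and 9.86 on the S153E-RKIP arrays and 10.16, 10.05 and 10.11 on the control arrays. These overlapped, with S153E-RKIP replicate 1 the highest of the 6 (difference -0.11, SE 0.10, adjusted p = 0.627). SLC7A8, encoding the related light chain LAT2 and named after its values were seen, had all 5 probe sets above 0 (0.049 to 0.23), and none was called. Of the other 9 genes the arrays overlapped in all but SLC7A13, which was dim (4.12 on average) and differed by 0.072.

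Several of these genes are known targets of ATF4, so RefSeq promoters (250 bases before to 50 after each start, GRCh38.p14) were searched for TGATGNAA, the core of the element that ATF4 binds with C/EBP partners, on both strands. It was found for 5 of the 41 members with a promoter sequence (12.2%), against 1217 of 27305 genes (4.46%). Among the other amino acid handling genes described below it was found for 7 of 58 (12.1%). A match is a description of letters and not a binding site. The stretches around the match are shown for the 5 members and for ASNS, asparagine synthetase, with the match in capitals. The match in SLC1A4 is the reverse complement of the motif.
SLC1A4, chr2:64989366-64989425, + strand: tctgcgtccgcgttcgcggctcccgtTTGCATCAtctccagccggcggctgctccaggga
SLC7A1, chr13:29595659-29595707, - strand: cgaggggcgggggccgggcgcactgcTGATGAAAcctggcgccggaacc
SLC38A1, chr12:46266487-46266546, - strand: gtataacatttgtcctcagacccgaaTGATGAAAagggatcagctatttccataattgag
SLC1A5, chr19:46784878-46784937, - strand: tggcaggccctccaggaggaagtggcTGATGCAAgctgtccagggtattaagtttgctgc
SLC1A3, chr5:36596342-36596401, + strand: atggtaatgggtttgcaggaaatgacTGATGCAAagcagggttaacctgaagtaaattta
ASNS, chr7:97872443-97872502, - strand: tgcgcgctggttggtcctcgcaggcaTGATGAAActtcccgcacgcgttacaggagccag

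The 5 members with a match did not share a direction. SLC1A4, SLC7A1, SLC38A1 and SLC1A5 had differences of -0.36, -0.18, -0.076 and -0.067, and SLC1A3 had 0.48. The match of SLC7A1 starts 8 bases into the transcript. That of SLC1A4 lies 7 bases before a start, at 1 of its 2 promoters, and that of SLC1A5 97 bases before a start, at 1 of 3. The matches of SLC1A4, SLC1A5 and SLC38A1 lie inside the genes as annotated, so these starts are not the outermost ones.

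The SLC6A family, the largest with 18 measured genes, had no called member, and its differences ran from -0.15 to 0.23. SLC6A17 encodes NTT4, a carrier of neutral amino acids in synaptic vesicles, and had 7.78, 7.56 and 7.64 on the S153E-RKIP arrays and 7.51, 7.55 and 7.33 on the control arrays. The S153E-RKIP arrays were higher by a narrow gap (difference 0.20, SE 0.083, adjusted p = 0.304). SLC6A16, whose substrate is not known, had 4.32, 4.46 and 4.71 on the S153E-RKIP arrays and 4.32, 4.27 and 4.22 on the control arrays. Its difference of 0.23 (SE 0.096, adjusted p = 0.304) came with overlapping groups, and without S153E-RKIP replicate 3 it was 0.12. The carriers of noradrenaline, dopamine and serotonin (SLC6A2, SLC6A3 and SLC6A4) differed by -0.050 to 0.13, and those of GABA and betaine (SLC6A11, SLC6A12 and SLC6A13) by 0.083 to 0.12. Only 3 of the 18 genes, SLC6A6, SLC6A17 and SLC6A19, were above the median of all genes. SLC6A6, the taurine carrier, had 9.50, 9.95 and 9.90 on the S153E-RKIP arrays and 9.70, 9.87 and 9.58 on the control arrays. It varied more between arrays of a group than between the groups (difference 0.069, SE 0.13, the largest SE of the 53 members). SLC6A8, the creatine carrier, is also read by 3 probe sets that the annotation shares with the pseudogene SLC6A10P, and they were not used. None of the 3 nerve cell markers (SNAP25, SYT1 and RBFOX3) was called, SYT1 differed by -0.24 (adjusted p = 0.206), and their summed log2 levels were 18.6 to 18.8 on the S153E-RKIP arrays and 18.7 to 19.0 on the control arrays.

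The SLC36A and SLC43A families had no called member. SLC36A1 encodes PAT1, a proton-coupled carrier of small amino acids found at lysosomes, and had 8.64, 8.55 and 8.73 on the S153E-RKIP arrays and 8.85, 8.67 and 8.70 on the control arrays. The groups overlapped (difference -0.097, adjusted p = 0.548), and averaging its 2 probe sets turned the sign (0.029). SLC36A4 differed by 0.073. SLC43A3, which carries nucleobases and not amino acids, had 11.23, 11.23 and 11.33 on the S153E-RKIP arrays and 11.18, 11.07 and 11.12 on the control arrays. All S153E-RKIP arrays were higher, by 0.14 (SE 0.061, 95% confidence interval 0.0016 to 0.28, adjusted p = 0.315). SLC43A1 and SLC43A2, carriers of large neutral amino acids, differed by -0.12 and -0.090.

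The sign of the difference went with the signal level, among the members as over all genes. Of the 23 members above the median of all genes, 15 had a difference below 0 and 8 above, with a median of -0.031, and the median of all genes in that range was -0.029. Of the 30 members at or below it, 18 had a difference above 0 and 12 below, with a median of 0.054, and that of all such genes was 0.053. After removal of this trend by loess the difference was -1.10 for SLC38A4, -0.33 for SLC1A4 and 0.46 for SLC1A3. That of SLC38A9 turned to 0.012.

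**Figure D4:**
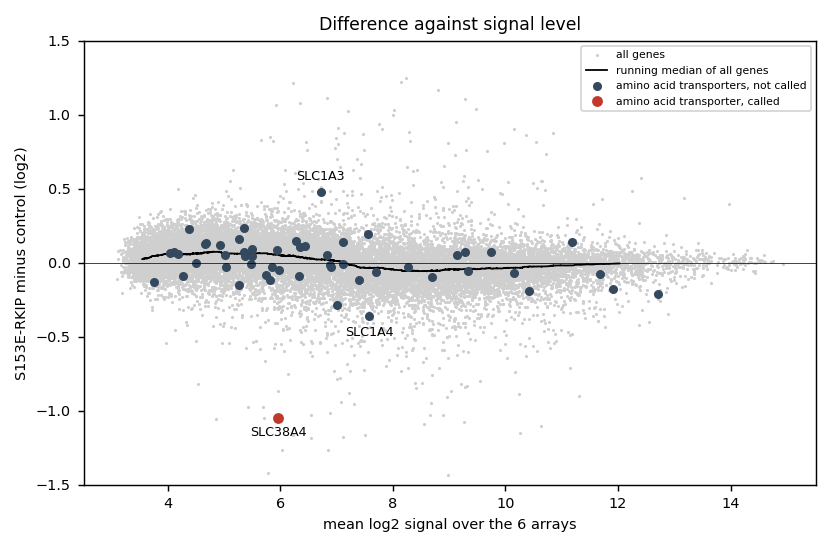
Difference in log2 signal (S153E-RKIP minus control, y axis, with 21 genes outside its range) against the mean log2 signal over the 6 arrays (x axis) for all genes (grey, with a running median over 1000 genes in black) and the 53 amino acid transporters. SLC38A4 (red, -1.05) lies far below the running median, and most other members stay close to it.

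Other genes of amino acid handling were described by role, and 5 of the 68 measured (of 73 listed) were called, 1 higher and 4 lower, or 7.35% beside 1.9% of all genes. The genes were listed with earlier results of these data known, and 2 of the 5, SLC7A11 and PHGDH, were known then to be lower. SLC7A11, the cystine and glutamate exchanger, had 9.91, 9.66 and 9.83 on the S153E-RKIP arrays and 10.62, 10.50 and 10.51 on the control arrays, and it fell by 0.74. It stayed called in all 18 alternatives (adjusted p of 0.0298 at most). PHGDH, the first enzyme of serine synthesis, fell by 0.29 (adjusted p = 0.0487), a call that no set of 5 arrays kept (adjusted p of 0.0619 to 0.201).

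Of 22 measured genes that sense amino acids at the lysosome, RRAGC and FNIP1 fell, and 20 were not called. RRAGC encodes RagC, a GTPase that brings mTORC1 to the lysosome. It had 10.12, 9.96 and 10.20 on the S153E-RKIP arrays and 10.56, 10.44 and 10.49 on the control arrays, a difference of -0.41 (SE 0.074, adjusted p = 0.0346). FNIP1, the partner of folliculin in the complex that acts on RagC, had 9.39, 9.38 and 9.39 on the S153E-RKIP arrays and 9.75, 9.80 and 9.70 on the control arrays. The 2 groups lay far apart next to their spread (difference -0.36, SE 0.055, adjusted p = 0.0151). For RRAGC no set of 5 arrays kept the call (adjusted p of 0.0512 to 0.169), and for FNIP1 only leaving out S153E-RKIP replicate 1 kept it (adjusted p = 0.0363, otherwise 0.0525 to 0.0904). Averaged over their probe sets, the differences were -0.24 for RRAGC and -0.19 for FNIP1 (adjusted p = 0.0758 and 0.122).

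Of 9 mitochondrial carriers 1 was called. SLC25A12 encodes aralar, which exchanges aspartate for glutamate across the inner membrane, and had 8.62, 8.61 and 8.63 on the S153E-RKIP arrays and 8.29, 8.29 and 8.36 on the control arrays. It rose by 0.31 (SE 0.054, adjusted p = 0.0283), and by 0.50 when its 2 probe sets were averaged (adjusted p = 0.00301). No set of 5 arrays kept the call (adjusted p of 0.0595 to 0.142).

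None of the 8 genes of the amino acid starvation response was called, while 5 had an unadjusted p under 0.05 and in 6 all S153E-RKIP arrays lay below all control arrays. Over all genes 7.92% were lower at that p and 10.8% did not overlap and were lower. All 8 lay above the median level, and among the 9887 genes there the shares were 13.3% and 18.5%. The median difference of the 8 was -0.24, that of all genes 0.010 and of genes above the median level -0.029. ATF4 itself had 12.44, 12.37 and 12.45 on the S153E-RKIP arrays and 12.54, 12.53 and 12.54 on the control arrays (difference -0.12, SE 0.054, adjusted p = 0.339). ASNS, an ATF4 target, had 9.79, 9.40 and 9.43 on the S153E-RKIP arrays and 9.96, 9.96 and 9.93 on the control arrays. S153E-RKIP replicate 1 lay near the control arrays and the other two well below (difference -0.41, SE 0.10, adjusted p = 0.107). Without that array the difference was -0.54 (adjusted p = 0.00848), and averaged over 2 probe sets it was -0.16 (adjusted p = 0.289). None of the 3 measured heavy chains and accessory proteins was called, nor any of 8 other amino acid carriers, and of 17 enzymes only PHGDH was.

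**Figure D5:**
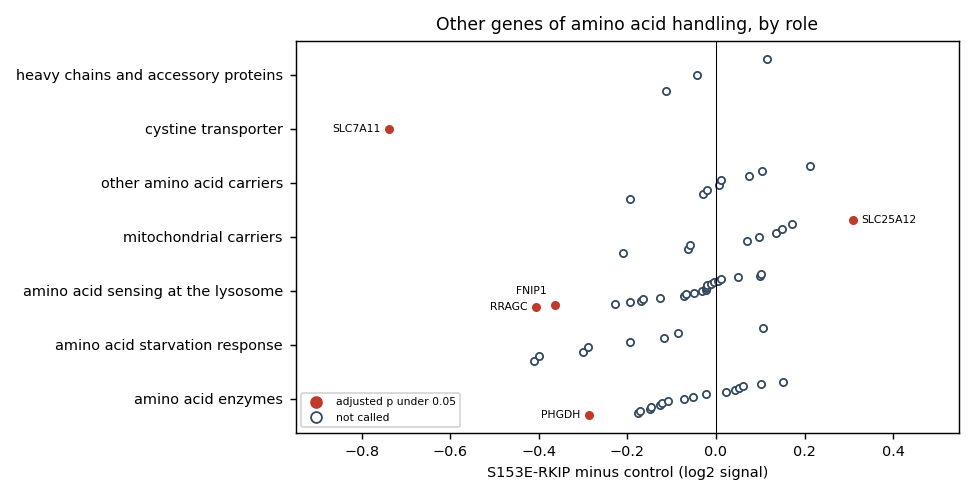
Difference in log2 signal (S153E-RKIP minus control, x axis) of the 68 other genes of amino acid handling, 1 point a gene, in rows by role from heavy chains at the top to enzymes at the bottom. Filled points are the 5 called genes, of which SLC25A12 (0.31) is the one to the right of 0, and in the starvation row 7 of 8 open points lie to the left of 0.

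The probe sets of a gene often disagreed on small differences. The 53 members have 131 probe sets of their own, from 1 to 8 a gene. Of the 34 members with several, 12 had all their differences on 1 side of 0 and 22 did not. Among the 131, 2 were called when every probe set was tested by itself, 1 each of SLC38A4 and SLC1A4, beside 574 of all 54613 (1.05%). An unadjusted p under 0.05 was reached by 21 of the 131, beside 13.2% of all probe sets.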

How the data were processed

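The authors deposited a log2 value for each probe set on each array. Per the submitters' processing notes, the tool was RMA. RMA's version and the annotation were not given in the sources used here, and no scanner output was used. RMA normalises the arrays by quantiles, so a shift common to all genes cannot be seen. Symbols came from the platform annotation (41091 probe sets with 1 symbol, of 54675), of which 41037 matched RefSeq by gene identifier and 0 changed. Each gene was read by its brightest probe set over the 6 arrays, with no filter on dim genes.

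Groups were taken from the titles. Differences between the 3 S153E-RKIP and 3 control arrays were fitted with limma 3.58.1 (R 4.3.3; lmFit, eBayes, two-sided), with p-values adjusted over all 19775 genes. On simulated data for this comparison of 19775 genes, 30 of 50 genes changed 1.3-fold and 48 of 50 changed 1.5-fold were recovered. All 50 changed 2-fold were recovered, and 7 of 19575 unchanged genes were called. The simulated noise was normal and independent, with limma's variances, which are already drawn toward a common value. Recovery in the real data was not measured and may be lower. Members, lists and tests were chosen with earlier results of these data known. The rule for named members took those called, with an unadjusted p under 0.05, with a difference of at least 0.5 or with the smallest p of their family, and SLC1A5, SLC7A1, SLC7A5, SLC38A2 and SLC38A9 always. Of the other genes it took those called and SLC3A2, ATF4 and ASNS. Members named outside it, such as SLC6A6, SLC7A8, SLC7A13, SLC38A1 and SLC38A5, were chosen after their values were seen. Alternatives changed the probe set rule, the filter, the normalisation, the variance model, the array weights, the block, the threshold and the arrays used. Figures were drawn with matplotlib 3.10.9.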

Additional observations from a re-analysis of the deposited data

How the results depend on the processing

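The number of amino acid transporters called (1) was 2 without probe sets ending in _x_at and with equal array medians. It was also 2 when only genes above the median level were tested. In that test SLC38A4 was left out, and SLC1A4 and SLC1A3 were called, SLC1A3 reaching the level only through its S153E-RKIP arrays. The number was 3 with only genes above 6 on at least 3 arrays, and 4 with trend and robust estimation. It was 1 whichever array was left out. The count of other amino acid handling genes called (5) was 9 with only genes above the median level, 8 with trend and robust estimation, 2 with every probe set tested by itself, 1 at an adjusted p under 0.01, and 1 to 3 with an array left out. Over the whole table the count (376) was 147 at that threshold, 600 with trend and robust estimation, and 124 to 303 with an array left out. The median difference of the transporters stayed between -0.040 and 0.037. The median level of the transporters had a spread (SD) of 0.098 between arrays of a group, which is not a spread of the median difference. The difference of SLC36A1 turned to 0.029 with the mean of probe sets. That of SLC38A9 turned to 0.021 with quantile normalisation again, 0.012 with the intensity trend removed, and 0.024 without S153E-RKIP replicate 2, the top of a range from -0.074 with an array left out. With the mean of probe sets SLC38A9 was at its lowest, -0.16. With the replicate number as a block, 332 genes, 1 transporter (SLC38A4, adjusted p = 0.00268) and 3 other amino acid handling genes were called. The correlation of same-numbered arrays' deviations was 0.134, 0.259 and -0.0445, and S153E-RKIP replicate 3 correlated best with control replicate 2, so the numbers were not taken to pair the samples. Signal over background was not measured, which limits what the 30 transporters at or below the median level can show.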
